A study of Mus musculus with 12 samples.

Results

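The genes described here are Txnip, its alpha-arrestin relatives Arrdc1, Arrdc2, Arrdc3 and Arrdc4, the thioredoxins Txn1 and Txn2, the thioredoxin reductases Txnrd1 and Txnrd2, and the glucose sensor Mlxip. These 10 genes were taken by name from 19938 genes measured on Affymetrix arrays, and each has 1 probe set with that gene as its only annotation. Txnip was chosen by its values, since it rose most with both siRNAs against UBF, and the other 9 genes were chosen for their family or pathway. The arrays come from NIH3T3 cells, an immortalised mouse fibroblast line, kept in DMEM with serum at a glucose level that the labels do not give. Cells received an siRNA against UBF named oligo 2, a second siRNA against UBF named oligo 1, an siRNA named for EGFP (sirEGFP), or the Dharmafect 2 reagent with no siRNA (Mock). Each siRNA was given at 40 nM, all groups including Mock received the reagent, RNA was taken after 48 h, and each of the 4 groups holds 3 arrays called biological replicates in the design text.

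Alpha-arrestins are adaptor proteins that bring ubiquitin ligases of the Nedd4 family to membrane proteins and so lead to their uptake from the cell surface. Txnip is the member that also binds reduced thioredoxin and limits its activity, and it promotes the uptake of glucose transporters from the membrane. Thioredoxins reduce disulfides in other proteins and are themselves reduced by thioredoxin reductases, Txn1 and Txnrd1 in the cytosol and Txn2 and Txnrd2 in mitochondria. Mlxip, also called MondoA, moves to the nucleus with its partner Mlx when glucose phosphates rise and activates Txnip and Arrdc4 through carbohydrate response elements, which are paired E-box-like sites.

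Upstream stretches of Txnip and Arrdc4 are shown because both genes are known targets of MondoA and only one of them was chosen for its rise. They were read from RefSeq promoter windows of build GRCm38.p6, which run from 250 bases before to 50 after a gene's start. All 10 genes had at least 1 window. The Txnip stretch is chr3:96557807-96557956 on the plus strand, positions -150 to -1 from the start, and its capitals mark a FoxO motif and a carbohydrate response element motif. The Arrdc4 stretch is chr7:68749278-68749458 on the minus strand, positions -220 to -40 from the start, and its capitals mark the E-box CACGTG.
Txnip: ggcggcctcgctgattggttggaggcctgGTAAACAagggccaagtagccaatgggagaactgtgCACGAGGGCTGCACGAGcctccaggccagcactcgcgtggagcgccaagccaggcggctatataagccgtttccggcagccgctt
Arrdc4: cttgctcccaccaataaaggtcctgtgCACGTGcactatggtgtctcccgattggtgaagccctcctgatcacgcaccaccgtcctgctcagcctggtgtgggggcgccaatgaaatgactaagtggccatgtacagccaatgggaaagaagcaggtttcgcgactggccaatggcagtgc
The paired motif, CACGNG and CNCGNG with 5 bases of any kind between them, was searched on both strands and lies at positions -85 to -69 from the Txnip start. It was found in 0.365% of 32841 windows of the same length (120 windows), and in no window of the other 9 genes. The FoxO motif GTAAACA, also searched on both strands, lies at positions -121 to -115 from it and was found in 3.65% of windows. The palindrome CACGTG begins 193 bases before the Arrdc4 start and was found in 7.15% of windows. A match describes these letters and is not evidence of binding.

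Values are the deposited log2 expression values, and array medians lay between 5.38 and 5.54. For Ubtf, the gene that encodes UBF, the 6 knockdown arrays spanned 7.49 to 7.998 and the 6 control arrays 8.04 to 8.68. Against sirEGFP it was 34.3% lower with oligo 2 and 31.9% lower with oligo 1, and neither difference passed the test over all genes (limma adjusted p = 0.0771 and 0.107), while both passed against Mock (0.0146 and 0.0252). The 8 fibroblast markers looked at, among them Vim and Col1a2, had mean levels of 6.92 to 12.8, against 3.76 to 6.64 for 6 epithelial, 3.28 to 6.49 for 6 macrophage and 3.84 to 5.66 for 5 endothelial markers. Probe sets differ in brightness, so these ranges only describe the arrays. The mean of the fibroblast markers lay between 8.77 and 9.39 over the 12 arrays, and its part in the results below was not tested. An array of a whole culture cannot tell fewer cells of a kind from less RNA per cell.

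Txnip stood above both controls with each siRNA against UBF, and higher with oligo 2 than with oligo 1. Its log2 level was 9.03, 8.79 and 9.26 on the oligo 2 arrays and 8.20, 7.997 and 8.54 on the oligo 1 arrays. It was 6.29, 6.86 and 6.80 on the sirEGFP arrays and 6.36, 6.85 and 6.91 on the Mock arrays. The lowest knockdown array lay 1.09 above the highest control array, so the groups did not overlap. The means were 9.03 ± 0.24 with oligo 2, 8.25 ± 0.28 with oligo 1, 6.65 ± 0.31 with sirEGFP and 6.70 ± 0.30 in Mock (SD, n = 3 each). Against sirEGFP the difference of means was 2.38 ± 0.20 with oligo 2 and 1.60 ± 0.20 with oligo 1 (SE), or 5.20-fold and 3.03-fold. Against Mock it was 2.32 ± 0.20 with oligo 2 and 1.54 ± 0.20 with oligo 1. These differences led to the choice of Txnip and are given as a description with no test. Among named genes called with both siRNAs and with all knockdown arrays above all controls, ranked by the mean of both against sirEGFP, Txnip came first at 1.99, before Cp at 1.80 and H2bc4 at 1.70.

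In the order of its levels Txnip stood highest with oligo 2, then with oligo 1, then in Mock and sirEGFP. The last pair differed by -0.055 (sirEGFP minus Mock, 95% interval -0.47 to 0.36), less than the spread between arrays. The difference between the siRNAs, which the choice did not use, was 0.78 ± 0.20 (SE, 95% interval 0.36 to 1.20) and was called by limma over all 19938 genes (adjusted p = 0.0383). All 3 oligo 2 arrays lay above all 3 oligo 1 arrays, with a gap of 0.24, a pattern not counted over all genes. That call was lost without oligo 1 array 1 (adjusted p = 0.088) or 2 (0.103), without oligo 2 array 1 (0.107) or 3 (0.178), under quantile normalization (0.0533) and in a fit of these arrays alone (0.0566).

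**Figure D1:**
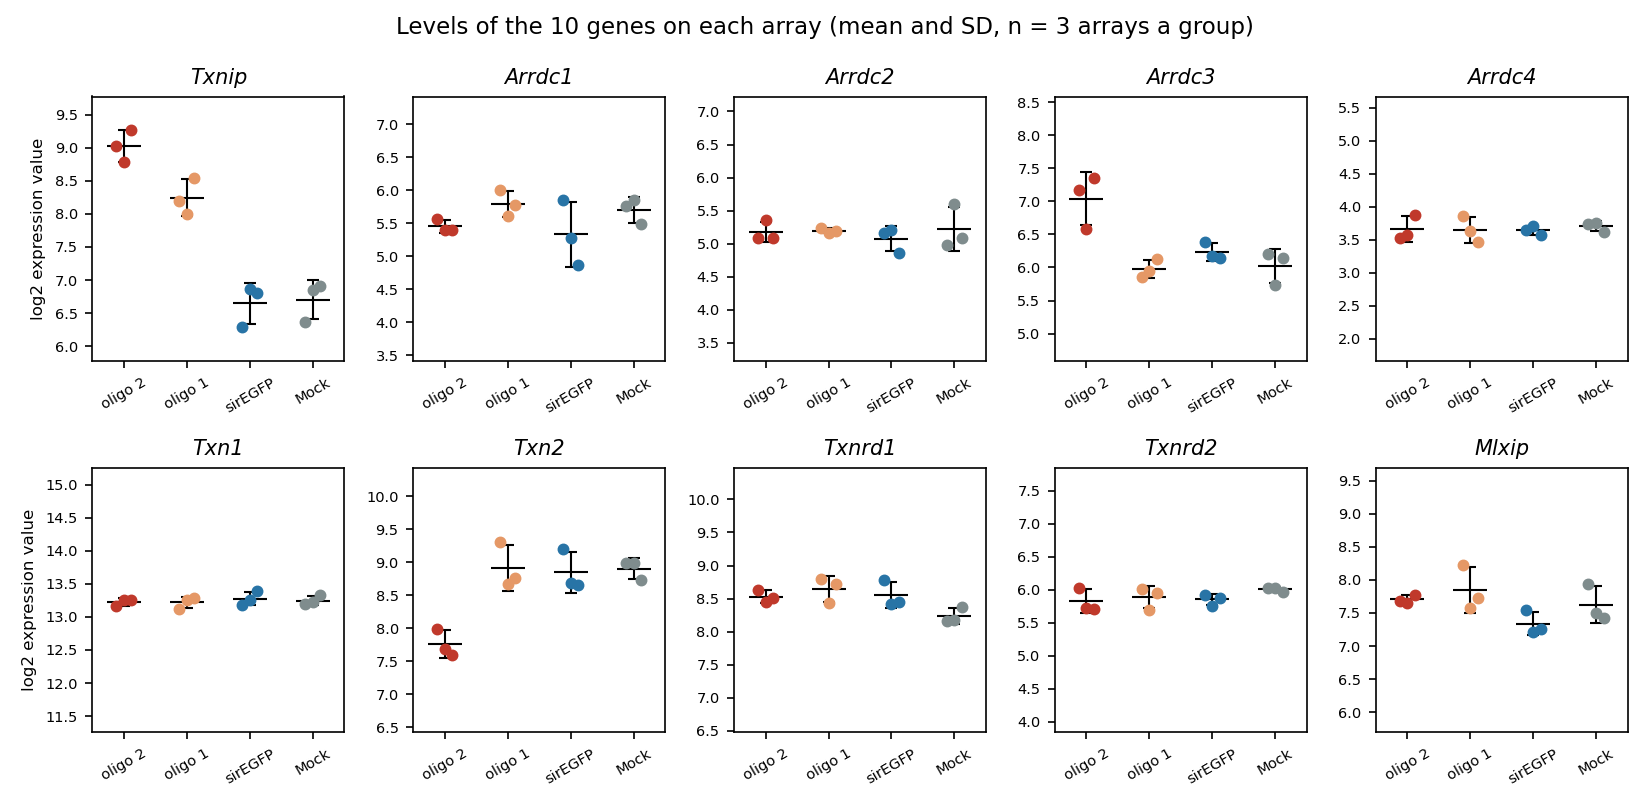
Log2 expression values of the 10 genes on each of the 12 arrays, by group from oligo 2 through oligo 1 and sirEGFP to Mock, with 1 point an array and the mean and SD of 3 arrays in black; all panels span the same number of log2 units. Txnip is high with both siRNAs against UBF, Arrdc3 is high and Txn2 low with oligo 2, and in the other 7 genes the knockdown arrays overlap with the control arrays.

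Among the alpha-arrestins, Arrdc3 rose with oligo 2 and not with oligo 1. Arrdc3 is an adaptor that acts on the beta 2-adrenergic receptor and other surface proteins. Its log2 level was 7.18, 6.59 and 7.35 with oligo 2, 5.85, 5.95 and 6.13 with oligo 1, 6.39, 6.17 and 6.14 with sirEGFP, and 6.20, 5.73 and 6.14 in Mock. The 3 oligo 2 arrays lay above the other 9, by 0.20 at the closest, as 3.32% of all genes had it (5.12% in either direction). Arrdc3 rose by 0.81 ± 0.18 (SE, n = 3 each) with oligo 2 against sirEGFP, or 1.75-fold (limma adjusted p = 0.0310), and by 1.01 ± 0.18 against Mock (adjusted p = 0.00608). With oligo 1 it stood at -0.26 against sirEGFP (95% interval -0.64 to 0.13, adjusted p = 0.633) and at -0.054 against Mock. The siRNAs themselves differed by 1.06 ± 0.18, oligo 2 over oligo 1 (adjusted p = 0.00402). The call against sirEGFP was lost without oligo 2 array 1 (adjusted p = 0.135) or 3 (0.146), without sirEGFP array 2 (0.128) or 3 (0.127), and in a fit of these groups alone (0.0615). The call between the siRNAs held without each array in turn and was lost when oligo 1 arrays 1 and 2 and sirEGFP array 1 were all left out (0.91, adjusted p = 0.124).

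Arrdc4, the alpha-arrestin that shares control by MondoA with Txnip, overlapped between all groups and was called in no comparison. It was 3.52, 3.57 and 3.88 with oligo 2, 3.85, 3.63 and 3.47 with oligo 1, 3.65, 3.71 and 3.57 with sirEGFP, and 3.73, 3.76 and 3.62 in Mock. The groups overlapped over a range of 0.41, and 11.3% of genes were dimmer. The differences from sirEGFP were 0.014 with oligo 2 (95% interval -0.26 to 0.29) and 0.0056 with oligo 1 (-0.27 to 0.28), with adjusted p = 0.981 and 0.995. How far so dim a probe set can follow its transcript could not be judged from these values.

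Arrdc1 and Arrdc2 were not called in any of the 7 comparisons. Arrdc1, an alpha-arrestin known for the release of small vesicles from the plasma membrane, ranged from 5.39 to 5.56 with oligo 2, 5.60 to 5.998 with oligo 1, 4.86 to 5.85 with sirEGFP and 5.49 to 5.85 in Mock. The sirEGFP arrays spread most, at an SD of 0.49, against 0.10 to 0.20 in the other groups. Its largest difference was 0.46 ± 0.20 with oligo 1 against sirEGFP (limma adjusted p = 0.314), which passed without sirEGFP array 1 (0.72, adjusted p = 0.0311). Arrdc2 ranged from 4.85 to 5.60 over the 12 arrays, and its differences from sirEGFP were 0.10 with oligo 2 (95% interval -0.23 to 0.44) and 0.12 with oligo 1 (-0.21 to 0.46).

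Of the thioredoxins, mitochondrial Txn2 fell with oligo 2 alone, while cytosolic Txn1 was not called. Txn2 stood at 7.99, 7.69 and 7.59 with oligo 2, 9.31, 8.67 and 8.76 with oligo 1, 9.20, 8.69 and 8.65 with sirEGFP, and 8.99, 8.99 and 8.72 in Mock. The highest oligo 2 array lay 0.66 below the lowest of the other 9 arrays, as 1.8% of all genes had it. Against sirEGFP Txn2 fell by 1.09 ± 0.19 (SE, n = 3 each) with oligo 2, which is 53.0% lower (limma adjusted p = 0.00530). Against Mock it fell by 1.14 (adjusted p = 0.00329) and against oligo 1 by 1.15 (adjusted p = 0.00275). With oligo 1 Txn2 stood at 0.064 against sirEGFP (95% interval -0.33 to 0.46, adjusted p = 0.942) and at 0.0087 against Mock. The 3 calls with oligo 2 held under all 21 alternatives, with adjusted p of at most 0.0385 against sirEGFP, 0.0236 against Mock and 0.0255 against oligo 1. The Ubtf transcript itself differed between the siRNAs by -0.052 (oligo 2 minus oligo 1, 95% interval -0.40 to 0.30, adjusted p = 0.941).

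Txn1, the main cytosolic thioredoxin and a binding partner of Txnip, varied by only 0.26 over the 12 arrays, from 13.13 to 13.39. Its differences from sirEGFP were -0.053 with oligo 2 (95% interval -0.28 to 0.18, adjusted p = 0.913) and -0.055 with oligo 1 (-0.28 to 0.18, adjusted p = 0.905). Txn1 was among the brightest genes on these arrays, and whether its probe set was near saturation could not be judged from these values.

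The reductases showed no call in any comparison. Txnrd1, the cytosolic reductase, ranged from 8.44 to 8.64 with oligo 2, 8.43 to 8.80 with oligo 1, 8.42 to 8.77 with sirEGFP and 8.16 to 8.38 in Mock. The 3 groups that received an siRNA lay above the 3 Mock arrays, and how many of all genes do so was not counted. Their means were higher than Mock by 0.30 with oligo 2, 0.41 with oligo 1 and 0.31 with sirEGFP. None of these differences passed (limma adjusted p = 0.315, 0.148 and 0.781). Against sirEGFP its differences were -0.018 with oligo 2 (95% interval -0.31 to 0.27) and 0.10 with oligo 1 (-0.19 to 0.39). Txnrd2, the mitochondrial reductase and partner of Txn2, ranged from 5.70 to 6.03 over the 12 arrays. Its differences from sirEGFP were -0.030 with oligo 2 (95% interval -0.30 to 0.24) and 0.032 with oligo 1 (-0.23 to 0.30), so the fall of Txn2 with oligo 2 had no counterpart of that size in its reductase.

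Mlxip, the glucose-responsive factor that activates Txnip, did not pass in any comparison. It stood at 7.68, 7.66 and 7.78 with oligo 2, 8.23, 7.57 and 7.73 with oligo 1, 7.54, 7.21 and 7.26 with sirEGFP, and 7.94, 7.49 and 7.43 in Mock. The arrays of both siRNAs against UBF all lay above the sirEGFP arrays, and both siRNAs overlapped with Mock. How many of all genes lie so against sirEGFP was not counted. Against sirEGFP the differences were 0.37 ± 0.17 with oligo 2 (limma adjusted p = 0.397) and 0.50 ± 0.17 with oligo 1 (0.178). Against Mock they were 0.083 (95% interval -0.29 to 0.45) and 0.22 (-0.15 to 0.59), since Mlxip was lower with sirEGFP than in Mock by 0.28 (adjusted p = 0.850).

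**Figure D2:**
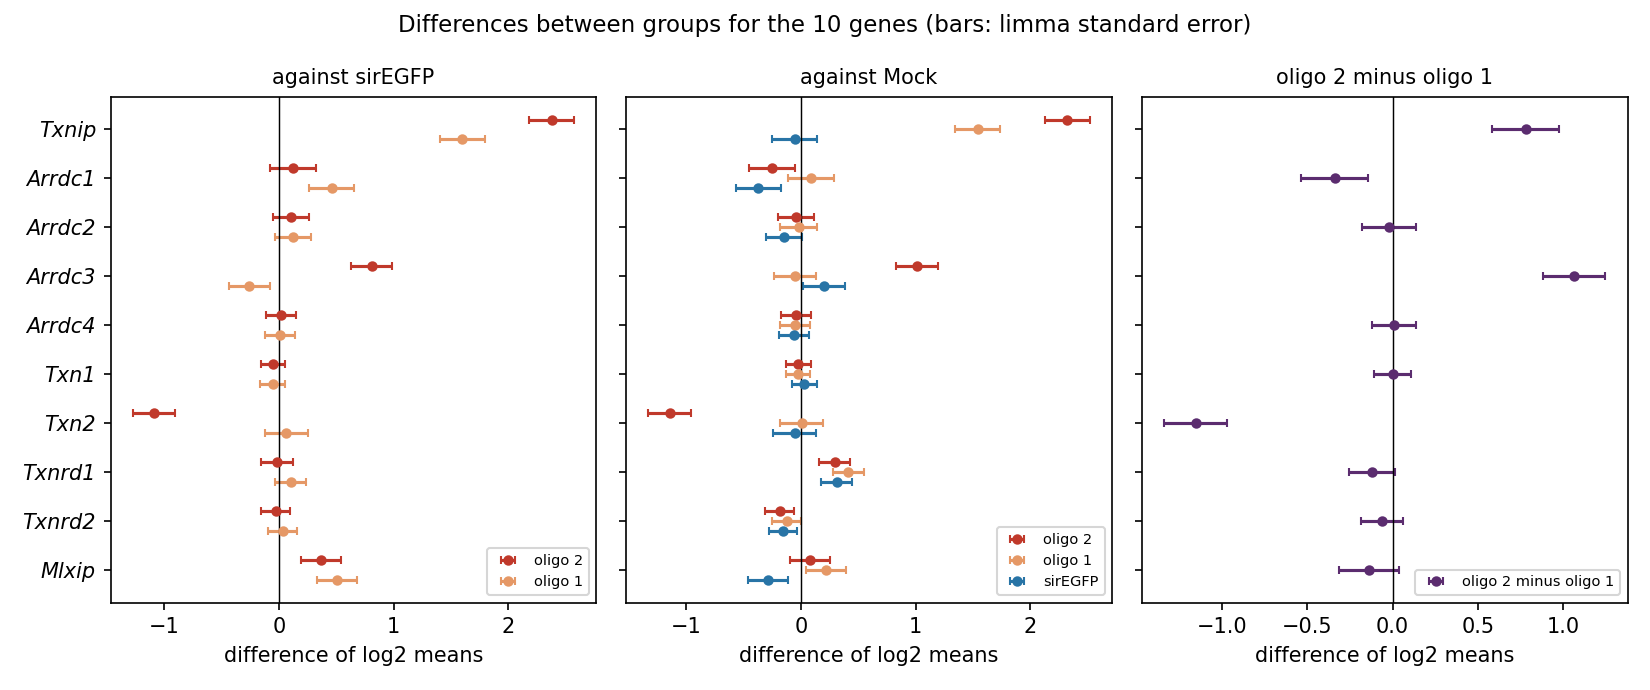
Differences of log2 group means for the 10 genes, with limma's standard error as bars, for oligo 2 and oligo 1 against sirEGFP, for oligo 2, oligo 1 and sirEGFP against Mock, and for oligo 2 minus oligo 1. Txnip stands at 2.38 and 1.60 against sirEGFP, and Arrdc3 and Txn2 lie away from 0 with oligo 2 in opposite directions.

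Among the 9 genes other than Txnip, limma called 2 with oligo 2 against sirEGFP, 1 higher (Arrdc3) and 1 lower (Txn2), where 2.26% of all genes were called, 1.52% higher and 0.742% lower. The same genes were called against Mock, where 4.25% of all genes were called, 2.93% higher and 1.32% lower. They were also the 2 called between the siRNAs, where 3.67% of all genes were called, 2.3% higher and 1.37% lower. With oligo 1 limma called 0 of 9 against sirEGFP, with Arrdc1 and Mlxip at an unadjusted p under 0.05, where 2.47% of all genes were called, 1.04% higher and 1.43% lower. With oligo 1 against Mock it called 0 of 9, with Txnrd1 at an unadjusted p under 0.05, where 2.75% of all genes were called, 1.35% higher and 1.4% lower. The mean of both siRNAs against sirEGFP gave 0 of 9 (1.93% of all genes, 1.21% higher and 0.722% lower), with Txn2 and Mlxip at an unadjusted p under 0.05. Between sirEGFP and Mock limma called 0 genes of all 19938, with 1247 at an unadjusted p under 0.05, Txnrd1 among them. None of the 9 had all 6 knockdown arrays beyond all 6 controls, as 2.12% of all genes had, 1.43% higher and 0.692% lower. The shares over all genes move with single arrays: without each array in turn limma called 198 to 627 genes with oligo 2 against sirEGFP (451 with all arrays) and 155 to 863 with oligo 1 (493), the lowest of both without sirEGFP array 2 and the highest without oligo 1 array 2. The comparisons with oligo 2 and oligo 1 share their control arrays, so calls in several of them are not independent.

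Within groups, several of the genes moved together from array to array. The largest axis of variation within groups, which held 41.5% of that variance over all genes, correlated with the deviations from group means of Txn2 at r = 0.92, Arrdc1 at 0.84, Txnrd1 at 0.81, Txnrd2 at 0.80 and Mlxip at 0.70, and with those of Txn1 at -0.79 (12 arrays). For Txnip it was -0.13, for Arrdc3 0.14, for Arrdc4 0.23 and for Arrdc2 0.24. Oligo 1 array 1 and sirEGFP array 1 stood at one end of this axis and oligo 1 array 2 at the other. The points share the arrays and their preparation, and the part of this axis in the differences above was not tested beyond leaving out those 3 arrays, without which Txn2 with oligo 2 stayed called against oligo 1 and Txnip with oligo 2 against oligo 1 stood at 0.48 (adjusted p = 0.481), with a single oligo 1 array left and assumed to vary like the others.

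The genes most like Txnip over the 12 arrays were found by Pearson's r of log2 values, leaving out genes with only a predicted or clone name. They were Sntb2, which encodes a syntrophin (r = 0.97), Entpd5, a nucleotidase of the endoplasmic reticulum (0.95), N4bp2 (0.95), the splicing regulator Mbnl2 (0.95), Cp, the copper carrier ceruloplasmin (0.95), Nfe2l2 (0.95), Klhl42 (0.93) and Capn6 (0.93). Nfe2l2 encodes NRF2, the factor that activates antioxidant genes such as Txnrd1. Its level was 11.10, 11.17 and 11.17 with oligo 2, 10.79, 10.57 and 10.74 with oligo 1, 10.29, 10.18 and 10.20 with sirEGFP, and 10.19, 10.02 and 10.20 in Mock. As with Txnip, the knockdown arrays lay above all controls and the oligo 2 arrays above the oligo 1 arrays. Against sirEGFP Nfe2l2 stood at 0.92 with oligo 2 and 0.47 with oligo 1, and Sntb2 at 0.99 and 0.63. The genes with the lowest r were Get1, of tail-anchored protein insertion (-0.92), the mitochondrial carrier gene Slc25a30 (-0.91), Snx25 (-0.91) and Fam162a (-0.90). These genes were picked for this pattern and get no test. Most of the likeness lies between groups, since within groups the r of the 8 genes ranged from -0.098 to 0.46. Of the 9 genes studied with Txnip, Arrdc3 had the highest r with it (0.59, with 7.21% of all genes higher) and Txn2 the lowest (-0.71).

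**Figure D3:**
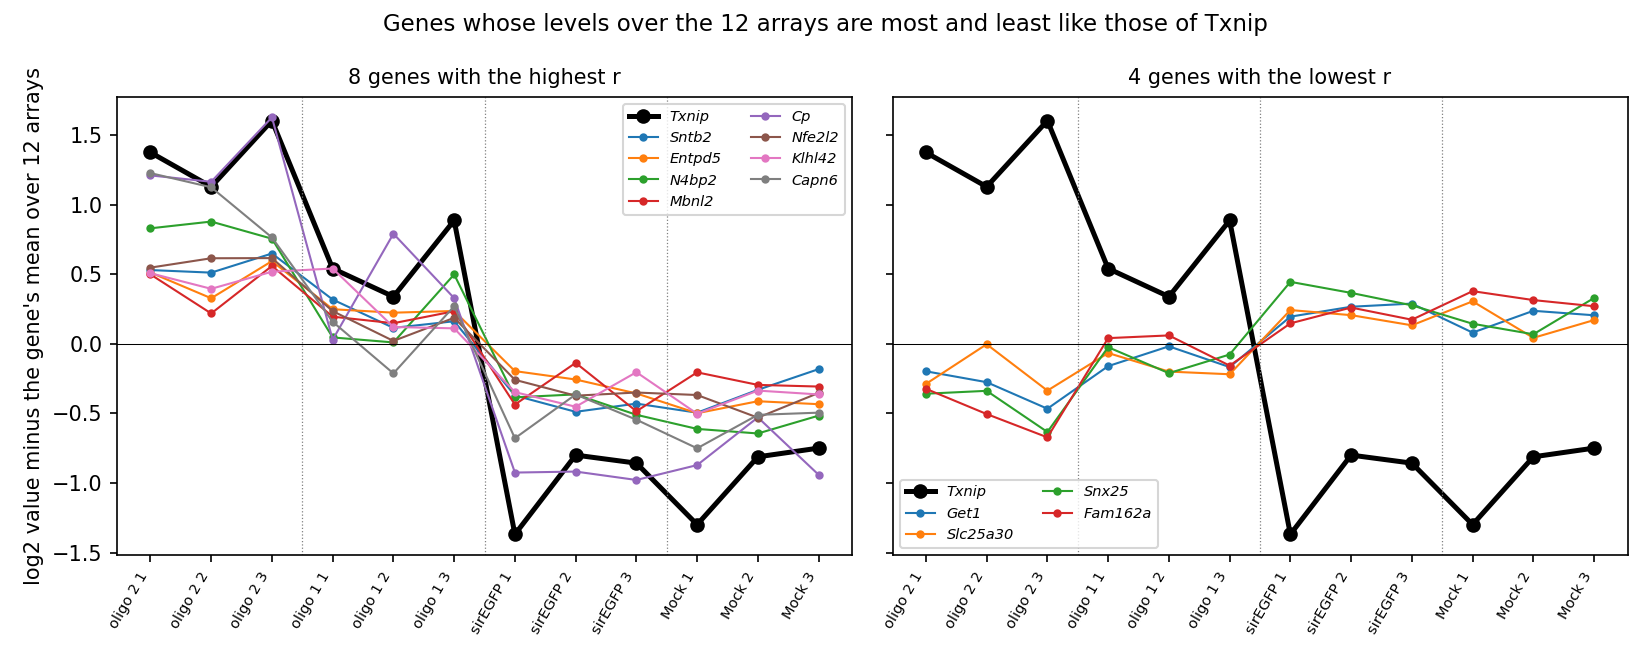
Log2 values of Txnip and of the 8 genes with the highest and the 4 genes with the lowest Pearson's r to it, each minus its mean over the 12 arrays, by array from oligo 2 through oligo 1 and sirEGFP to Mock. From knockdown to control arrays Txnip and the 8 genes of the left panel step down, and the 4 genes of the right panel step up.

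The surrounding pathways were followed in 13 lists with 131 measured genes besides the 10. Over these, limma called 5 higher and 0 lower with oligo 2 against sirEGFP (3.82%, where 2.26% of all genes were called), and 4 higher and 2 lower with oligo 1 (4.58%, against 2.47% of all genes). Against Mock it called 11 higher and 2 lower with oligo 2 (9.92%, against 4.25% of all genes), and 4 higher and 2 lower with oligo 1 (4.58%, against 2.75%). The lists' median difference was 0.078 with oligo 2, where all genes had -0.0077, and 0.071 with oligo 1, where all genes had 0.022.

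On the glucose side of the pathway limma called 0 genes against sirEGFP with either siRNA. Of Mlx and Mlxipl, the partner and the close relative of Mlxip, none was called, at 0.014 and -0.088 with oligo 2 and 0.24 and -0.020 with oligo 1. Among 12 other targets of MondoA and its relative ChREBP, limma called 0 with either siRNA, with 3 at an unadjusted p under 0.05 with oligo 2 and 1 with oligo 1. Tkt, of the pentose phosphate pathway, stood at 0.99 and 0.45 (adjusted p = 0.119 and 0.611), the ATP citrate lyase gene Acly at 0.29 and 0.17, and the fatty acid elongase gene Elovl6 at -0.40 and -0.36. Against Mock, Elovl6 fell with oligo 2 by 0.66 (adjusted p = 0.00890) and with oligo 1 by 0.63 (0.0137), and Scd1 fell by 0.49 with oligo 2 (0.0391). The oligo 1 call of Elovl6 was lost without oligo 1 array 3 (0.0681) or Mock array 2 (0.0718), in a fit of these groups alone (0.0505) and without the 3 arrays that end the axis (0.135), and that of Scd1 under 9 of 21 alternatives (0.0544 to 0.168). Among 14 genes of glucose carriers and hexokinases limma called 0 against either control, with 0 and 1 at an unadjusted p under 0.05 against sirEGFP for oligo 2 and oligo 1, and the differences from sirEGFP ranged from -0.28 to 0.13 with oligo 2 and from -0.10 to 0.32 with oligo 1. Slc2a10 stood at 0.097 and 0.32, Slc2a6 at -0.28 and -0.10 and the hexokinase gene Hk1 at -0.23 and -0.056. Of 8 genes of AMPK, the kinase that marks Txnip for degradation, 0 were called against sirEGFP, with 1 at an unadjusted p under 0.05 for each siRNA. Prkab2 stood at 0.079 with oligo 2 and 0.53 with oligo 1, Prkag3 at -0.31 and -0.10, and Stk11, which encodes the upstream kinase LKB1, at 0.51 and 0.46. Against Mock, Prkaa2 was called higher with oligo 2 (0.40, adjusted p = 0.0498). That call held under only 8 of the 20 alternatives that kept this gene, with adjusted p of at most 0.171.

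The partners of the arrestins were not called against sirEGFP either. None of 8 other genes with an arrestin fold passed, with 0 at an unadjusted p under 0.05 for either siRNA, and Arrb1, Rgp1 and Arrdc5 stood at 0.23, 0.0062 and -0.14 with oligo 2 and at 0.18, 0.23 and -0.050 with oligo 1. Of 11 Nedd4 family ligases and their adaptors none passed, with 1 and 3 at an unadjusted p under 0.05 for oligo 2 and oligo 1. Nedd4l stood at 0.17 with oligo 2 and 0.60 with oligo 1, Ndfip2 at 0.24 and 0.34 and Nedd4 at 0.28 and 0.11. Smurf2 was called higher with oligo 2 against Mock (0.42, adjusted p = 0.0498), a call lost under 11 of 21 alternatives (0.0504 to 0.192).

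On the redox side, Glrx rose with both siRNAs against sirEGFP. Glrx encodes glutaredoxin, which reduces disulfides with glutathione beside the thioredoxin system. It stood at 9.04, 9.13 and 8.82 with oligo 2, 8.73, 8.71 and 8.65 with oligo 1, 8.04, 8.28 and 8.22 with sirEGFP, and 8.34, 8.55 and 8.21 in Mock. All knockdown arrays lay above all controls, by 0.10 at the closest, as 1.43% of all genes had it. Over all genes, limma called 1.52% higher with oligo 2 against sirEGFP and 1.04% with oligo 1. Glrx rose by 0.82 ± 0.13 with oligo 2 (limma adjusted p = 0.00297, at most 0.0205 over 21 alternatives). With oligo 1 it rose by 0.52 (adjusted p = 0.0416), a call lost under 12 of 21 alternatives. These were each oligo 1 or sirEGFP array left out (0.0583 to 0.120), oligo 2 array 1 (0.0570) or Mock array 1 (0.0615) left out, quantile normalization (0.0510), limma-trend (0.0557), these groups alone (0.111) and the 3 arrays that end the axis left out (0.378). Against Mock, Glrx was called with oligo 2 (0.63, limma adjusted p = 0.0116) and not with oligo 1, whose mean was 8.70 where Mock had 8.37. The call with oligo 2 against Mock was lost without oligo 2 array 2 (0.0581) or Mock array 1 (0.0553). Among the other 19 thioredoxin-fold genes and partners, Tmx1, a redox protein of the endoplasmic reticulum membrane, fell by 0.73 with oligo 1 (adjusted p = 0.00970) and stood at -0.14 with oligo 2. The siRNAs differed in Tmx1 by 0.59, oligo 2 over oligo 1 (adjusted p = 0.0228). The fall of Tmx1 was not called without sirEGFP array 2 (0.0678) or the 3 arrays that end the axis (0.103), and its difference between the siRNAs without oligo 2 array 1 (0.0751) or 3 (0.119), oligo 1 array 1 (0.0656) or 3 (0.0700), or those 3 arrays (0.274). Glrx2, the mitochondrial glutaredoxin gene, stood at 0.35 and 0.40 and did not pass. A list of 9 measured genes held peroxiredoxins and methionine sulfoxide reductases, which thioredoxin reduces, and the sulfiredoxin gene Srxn1. Of these 9, 0 were called against either control, with 2 and 1 at an unadjusted p under 0.05 against sirEGFP for oligo 2 and oligo 1. Prdx2 stood at 0.38 and 0.35, Prdx4 at -0.21 and -0.24, and Srxn1 at 0.34 and 0.12.

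Genes of proteins that thioredoxin acts on were called between the siRNAs. Of 5 measured genes, 3 were called higher with oligo 2 than with oligo 1, namely Map3k5, Rrm1 and Rrm2. Of all genes, 2.3% were called higher there and 3.67% in either direction. Map3k5 encodes ASK1, a stress kinase held inactive by reduced thioredoxin. It stood at 6.03, 5.96 and 5.91 with oligo 2, 5.13, 5.48 and 5.17 with oligo 1, 5.41, 5.05 and 4.84 with sirEGFP, and 5.16, 5.22 and 5.18 in Mock. Only the oligo 2 arrays stood apart, above the other 9 arrays, as 3.32% of all genes had it. With oligo 2 Map3k5 rose by 0.86 ± 0.14 against sirEGFP (limma adjusted p = 0.00446), where 1.52% of all genes were called higher. It rose by 0.71 against oligo 1 (0.0120). The call between the siRNAs was lost without oligo 2 array 1 (0.0516) or oligo 1 array 3 (0.0637). That of the mean of both siRNAs (0.51, adjusted p = 0.0491) was lost without each array but oligo 1 array 1 and sirEGFP array 1 (0.0512 to 0.316). Rrm1 and Rrm2 encode the subunits of ribonucleotide reductase, which draws electrons from thioredoxin. Rrm1 stood at -0.038 with oligo 2 against sirEGFP and fell by 0.70 with oligo 1 (adjusted p = 0.00644), a difference between the siRNAs of 0.66 (0.00632). The fall with oligo 1 was no longer called in a fit of these groups alone (0.0557) or without the 3 arrays that end the axis (0.0506). Rrm2 stood at 0.36 with oligo 2 and -0.36 with oligo 1, which differed by 0.73 (0.00918). When the 3 arrays that end the axis were left out, the calls between the siRNAs were lost for Rrm1 (0.0521) and Rrm2 (0.143). Rrm2b stood at 0.072 and 0.23 and did not pass.

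Of 7 genes of the Nlrp3 inflammasome, to which Txnip can bind, Il18 rose with oligo 2 against sirEGFP, and Il18 and Casp1 against Mock. Over all genes, limma called 1.52% higher with oligo 2 against sirEGFP and 2.93% against Mock. The cytokine gene Il18 stood at 7.45, 6.81 and 7.16 with oligo 2, 6.94, 6.77 and 6.44 with oligo 1, 6.0003, 5.74 and 5.82 with sirEGFP, and 6.76, 5.997 and 5.73 in Mock. Both siRNAs lay above sirEGFP, a pattern not counted over all genes, and Mock array 1 lay within the range of oligo 1. Il18 rose by 1.29 with oligo 2 against sirEGFP (limma adjusted p = 0.00676) and stood at 0.87 with oligo 1 (0.0622), and the siRNAs differed by 0.42 (adjusted p = 0.444). Against Mock it rose by 0.98 with oligo 2 (0.0253), a call lost without oligo 2 array 1 or 3 or Mock array 2 or 3 (0.0919 to 0.114). Casp1, the inflammasome's protease gene, rose by 0.90 with oligo 2 against Mock (0.0230), a call lost without oligo 2 array 1 or 2 or any Mock array (0.0512 to 0.103), and stood at 0.60 with oligo 2 and -0.10 with oligo 1 against sirEGFP. Its probe set was dim, with group means from 3.01 in Mock to 3.90 with oligo 2, and Casp1 drops out with the dimmest genes. Gsdmd stood at -0.014 with oligo 2 and -0.31 with oligo 1, and Il1b at -0.27 and -0.091.

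Regulators that act on the Txnip promoter in other settings were followed last. Of 17 FoxO factors and targets, 1 rose with oligo 2 against sirEGFP, the sestrin gene Sesn3 at 0.60 (limma adjusted p = 0.0184). With oligo 1, 1 rose, the catalase gene Cat at 0.52 (0.0158). The list medians were 0.22 and 0.081. Of all genes, 1.52% were called higher with oligo 2 against sirEGFP and 1.04% with oligo 1. Foxo3 itself stood at 0.41 with oligo 2 and 0.45 with oligo 1 against sirEGFP (adjusted p = 0.0844 and 0.0538) and rose by 0.65 and 0.69 against Mock (0.00528 and 0.00426), calls that held under the 21 alternatives, except that of oligo 1 without the 3 arrays that end the axis (0.0640). The mean of both siRNAs against sirEGFP was called for Foxo3 (0.43, limma adjusted p = 0.0397), where 1.21% of all genes were called higher. That call held under only 7 of 21 alternatives. All knockdown arrays lay above all controls for Foxo3 (by 0.21) and Cat (by 0.052), as 1.43% of all genes had it. Against sirEGFP the call of Sesn3 was lost without oligo 2 array 1 (0.102) or 3 (0.0614) or sirEGFP array 2 (0.108) or 3 (0.0946) and in a fit of these groups alone (0.0615), and that of Cat without oligo 1 array 1 (0.0586) or 3 (0.0663) or sirEGFP array 2 (0.0561) or 3 (0.0643), in a fit of these groups alone (0.0940) and without the 3 arrays that end the axis (0.162). Cited2, a transcriptional cofactor, stood at 0.61 with oligo 2 (0.0513) and 0.20 with oligo 1. Against Mock, 4 of the 17 rose with oligo 2, where 2.93% of all genes were called higher. They were Foxo3, Sesn3 by 0.78 (0.00313), Cited2 by 0.84 (0.00637) and Cat by 0.55 (0.00861). With oligo 1, 2 rose, Foxo3 and Cat by 0.89 (0.000695), where 1.35% of all genes were called higher. The Mock calls of Sesn3, Cited2 and Cat held under all 21 alternatives. Between the siRNAs, 2 of the 17 were called higher with oligo 2, where 2.3% of all genes were called higher. They were Sesn1 by 0.69 (limma adjusted p = 0.0112) and Sesn3 by 0.56 (0.0201), calls that held under 19 and 16 of 21 alternatives. Of 9 glucocorticoid targets 1 was called against sirEGFP, Sgk1 with oligo 2 (0.52, adjusted p = 0.0461), a call lost under 12 of 21 alternatives (0.0543 to 0.192), and Errfi1 and Nfkbia stood at -0.15 and 0.33 with oligo 2 and at -0.30 and 0.0090 with oligo 1. Of 11 NRF2 targets besides Txnrd1, 0 were called with oligo 2 against sirEGFP, with 3 at an unadjusted p under 0.05, and 2 rose with oligo 1, the haem oxygenase gene Hmox1 at 1.56 (0.0168) and the quinone reductase gene Nqo1 at 0.63 (0.0402). Both calls were lost without oligo 1 array 1 or 3 or sirEGFP array 2 or 3 (0.0637 to 0.101 for Hmox1, 0.0924 to 0.197 for Nqo1) and in a fit of these groups alone (0.0603 and 0.127). That of Nqo1 was lost under 11 of 21 alternatives in all, among them without oligo 2 array 3 (0.0614), Mock array 1 (0.0521) or Mock array 3 (0.0584). The siRNAs differed in Hmox1 by -1.27, oligo 2 minus oligo 1 (adjusted p = 0.0370), a call that held under 13 of 21 alternatives. Gclm stood at 0.45 with oligo 2 and 0.34 with oligo 1 and was not called. All its knockdown arrays lay above all controls, by 0.031 at the closest, as 1.43% of all genes had it. Slc7a11, the cystine carrier gene, stood at 0.64 with oligo 2 and -0.77 with oligo 1, and the siRNAs differed by 1.40, oligo 2 over oligo 1 (adjusted p = 0.00617), a call lost without the 3 arrays that end the axis (0.0952). Against Mock, Hmox1 and Nqo1 rose with oligo 1 by 1.82 (0.00562) and 0.83 (0.00713), and Slc7a11 rose with oligo 2 by 1.18 (0.0163). The call of Hmox1 against Mock held under all 21 alternatives, that of Nqo1 was lost without the 3 arrays (0.108), and that of Slc7a11 without oligo 2 array 1 (0.0504) or 3 (0.0857) or Mock array 1 (0.0862). Slc7a11, Scd1, Smurf2, Rrm2, Casp1, Prkaa2, Sesn1 and Sesn3 were named after their values were seen.

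**Figure D4:**
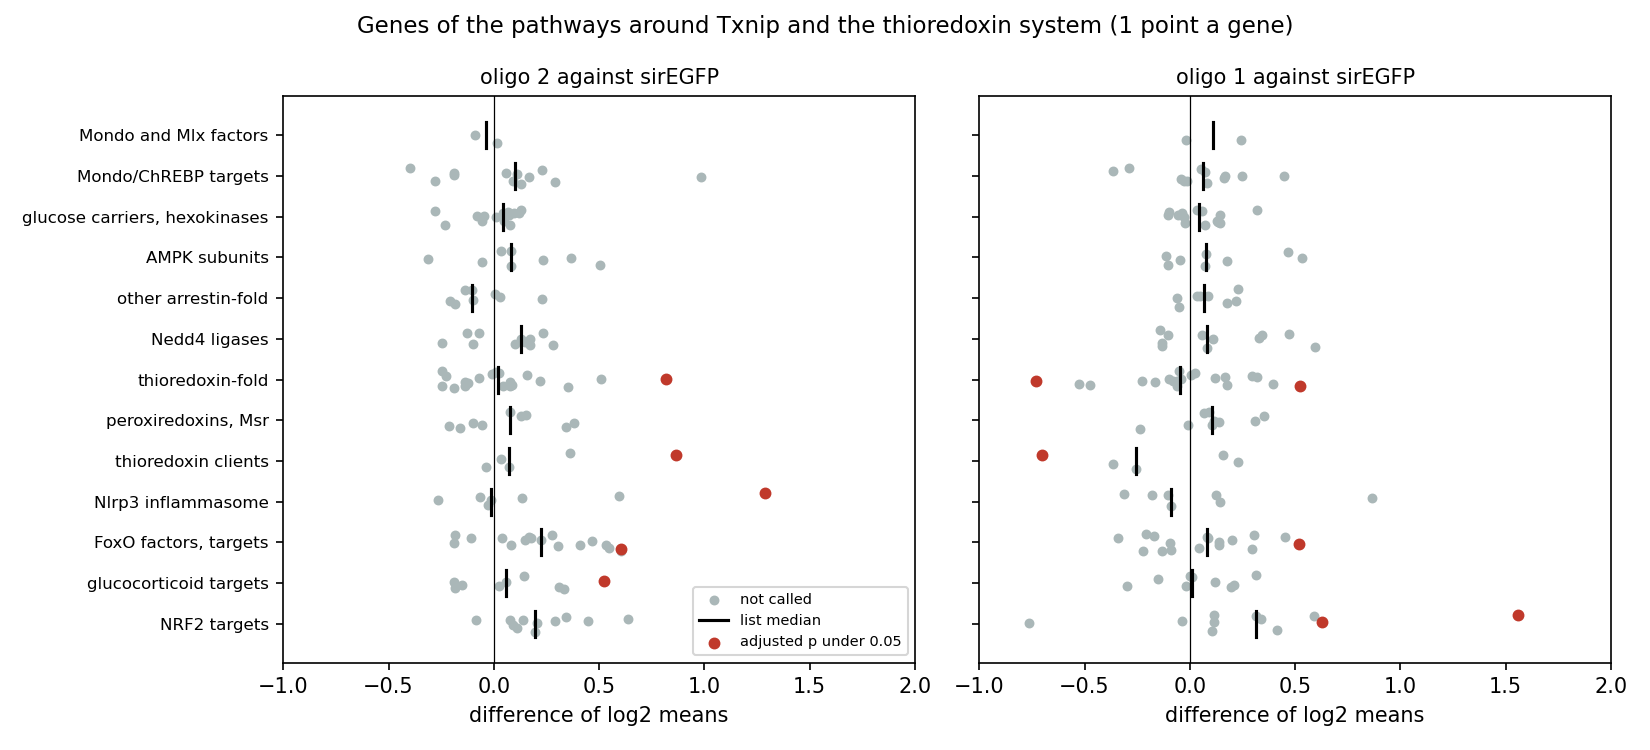
Differences of log2 means against sirEGFP for the 131 genes of 13 lists around Txnip and the thioredoxin system, with oligo 2 on the left and oligo 1 on the right, 1 point a gene, red where limma's adjusted p was under 0.05 and with the list median as a black line. Few genes are called in any list, and the glucose carriers and hexokinases lie near 0 with both siRNAs.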

How the data were processed

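Gene expression was measured on 12 Affymetrix arrays of NIH3T3 cells, and per the labels' protocols 100 ng of total RNA gave 2.5 ug of labelled cDNA. The deposited values are log2 expression values for 35512 probe sets, a scale read from the values (1.29 to 13.96). How the authors summarised and normalized them is not given in the sources used here, and limma is named in the submitters' processing notes without its step. Signal over background could not be judged, and precision is limited by the number of arrays.

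Of the probe sets, 21789 carried 1 gene symbol in the platform annotation, 1621 several and 12102 none. Symbols were updated by Entrez identifier through RefSeq (GRCm38.p6), where 21698 matched. For 999 genes with several probe sets the one of highest mean was taken, which left 19938 genes. A linear model with 4 group means and 8 residual degrees of freedom was fitted in limma 3.58.1 under R 4.3.3 and moderated with eBayes, tests were two-sided, with Benjamini-Hochberg adjustment over all genes and calls at an adjusted p under 0.05. The fit was tested on simulated data.

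The 10 genes and the lists were chosen with earlier results of these data known. The rule for names took the 10 genes, up to 3 genes of smallest p from each list in the mean of both siRNAs against sirEGFP with any further genes called there, the 8 and 4 genes most and least like Txnip, and Ubtf. Results were recomputed under 20 alternatives and 1 added after seeing the data. Groups share replicate numbers, and array deviations correlated above 0.1 in 12 of 18 same-number pairs. The median r was 0.17 for pairs of the same number and -0.13 for pairs of different numbers. No source states a block, so the number was used as a block in an alternative fit and not in the main one.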

Additional observations from a re-analysis of the deposited data

Results flagged for a closer look

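By limma's test of the difference itself, the siRNAs against UBF differed in 2 of the 9 genes other than Txnip, where 3.67% of all genes were called. They also differed in Txnip, which was chosen for its rise with both siRNAs. Oligo 2 minus oligo 1 was 0.78 for Txnip (adjusted p = 0.0383), 1.06 for Arrdc3 (adjusted p = 0.00402) and -1.15 for Txn2 (adjusted p = 0.00275). In each, all 3 oligo 2 arrays lay beyond all 3 oligo 1 arrays, a pattern not counted over all genes. The Txnip call was lost under quantile normalization (0.0533), in a fit of these arrays alone (0.0566), without oligo 1 array 1 or 2 or oligo 2 array 1 or 3 (0.088 to 0.178) and without 3 arrays together (0.481). That of Arrdc3 was lost only without those 3 arrays (0.124), and that of Txn2 held under all 21 alternatives. The Ubtf transcript differed by -0.052 between the siRNAs (adjusted p = 0.941). Groups of 3 arrays were too small for a test of single arrays that stand apart.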

How the results depend on the processing

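Over the 9 genes other than Txnip, 63 gene and comparison pairs and 21 alternatives gave 1316 values, since Arrdc4 drops out with the dimmest genes, of which 1294 kept their direction and their side of the threshold or moved by less than 1 SD between arrays. Calls were lost in 6, gained in 9, 7 uncalled values moved by more, and 0 were reversed. The counts of genes called moved as follows, with causes not tested. Array weights, in which oligo 1 array 3 weighed 8.92 and arrays 1 and 2 weighed 0.44 and 0.42, called 2 genes with oligo 1 against sirEGFP (Arrdc1 and Mlxip), 2 with the mean of both siRNAs (Txn2 and Mlxip) and 1 with oligo 1 against Mock (Txnrd1). The same weights called 3814, 1949 and 2695 of all 19938 genes in these comparisons, against 493, 385 and 549 without weights, so the members' gains stand beside a rise over all genes. The replicate number as a block called 1 gene with oligo 1 against sirEGFP (Mlxip, adjusted p = 0.0463) and 1 with the mean of both (Txn2, 0.0173), and 9 of 12 arrays correlated best with an array of their own number. The block changed no other count of calls and left the Txnip difference between the siRNAs called. Leaving out each array in turn gave 0 to 1 genes with oligo 1 against sirEGFP, 0 to 1 with the mean of both and 1 to 2 with oligo 2 against sirEGFP. A fit of the groups compared alone called 1 gene with oligo 2 against sirEGFP (Txn2). Leaving out oligo 1 arrays 1 and 2 with sirEGFP array 1, an alternative chosen after seeing the data, 1 gene was called between the siRNAs (Txn2), and Txnip stood at 0.48 there and at 1.84 with oligo 1 against Mock (1.87 with array weights). The Txnip difference between the siRNAs was no longer called under quantile normalization (0.75), in a fit of these arrays alone (0.78) and without single arrays, over which it ranged from 0.66 to 0.93. Over all genes, leaving out each array gave 198 to 627 calls with oligo 2 against sirEGFP (451 with all arrays; 218 to 237 without each oligo 2 array, 198 and 200 without sirEGFP arrays 2 and 3), 155 to 863 with oligo 1 (493; 260, 863 and 209 without oligo 1 arrays 1, 2 and 3, 155 and 218 without sirEGFP arrays 2 and 3), and 108 to 722 with the mean of both (385; 108 and 116 without sirEGFP arrays 2 and 3, 722 and 225 without oligo 1 arrays 2 and 3, 220 and 226 without oligo 2 arrays 1 and 3). Against Mock it gave 307 to 1044 with oligo 2 (848; 342 to 472 without each oligo 2 array, 307 and 374 without Mock arrays 1 and 2) and 244 to 674 with oligo 1 (549; 244 without oligo 1 array 3, 293 to 358 without each Mock array), and between the siRNAs 328 to 833 (732; 373 without oligo 1 array 3, 328 to 451 without each oligo 2 array). With array weights 1180 genes were called with oligo 2 against sirEGFP, 1610 against Mock and 3164 between the siRNAs. The replicate block called 773, 878, 789, 838 and 1290 with oligo 2, oligo 1 and their mean against sirEGFP and with oligo 1 and oligo 2 against Mock. Fits of the groups alone called 101 with oligo 1 against sirEGFP, 236 with the mean, 276 with oligo 1 against Mock and 380 between the siRNAs. Without the 3 arrays together 1049, 255 and 793 were called with oligo 2, oligo 1 and their mean against sirEGFP, 1314 and 145 with oligo 2 and oligo 1 against Mock, and 211 between the siRNAs.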
